A study of Mus musculus with 8 samples.

Results

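The helper lineage transcription factors are the proteins that steer CD4 T cells into type 1, type 2, type 17, follicular and effector regulatory states. Members were chosen by gene name, as all probes whose symbol in the deposited array table is Gata3, Tbx21, Rora, Bcl6, Maf, Prdm1, Ahr, Nfil3 or Bhlhe40, or an older name of 1 of these 9 genes. The table held 10 such probes among 25697, for 8 of the 9 genes; no probe carries the symbol of Nfil3. Of these, 5 probes passed a filter on dim signal (at least 2 of the 8 arrays with a detection p below 0.01), 1 each for Gata3, Tbx21, Rora, Bcl6 and Bhlhe40, among 11047 probes that passed in all. Bhlhe40 appears under its older symbol Bhlhb2, and 3 probes named Stra13 were left out because 3 genes share that older name.

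The arrays are Illumina MouseRef-8 v2.0 chips, and the CD4 T cells were sorted out of mesenteric lymph nodes, the nodes that drain the gut. Cells of Mir-21_KO mice, which lack the gene of microRNA 21, were set beside cells of wild type littermates. Each genotype gave a CD4+CD25High and a CD4+CD45High population, and each population was taken either after 30 min with antibodies against CD3 and CD28 or without stimulation. Each of the 8 combinations has a single array, so a comparison over all arrays rests on 4 matched pairs, and one within a population on 2. The p-values tell how steady a difference was over those pairs and say nothing of variation between mice. The sources used here do not name the CD45 isoform of the sort, the age of the mice or how many were pooled.

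Each of these factors binds DNA and switches on or represses the genes of a helper program, and several of them oppose each other in the same cell. T-bet, the product of Tbx21, drives the interferon gamma program of type 1 cells, while GATA3 drives the interleukin 4 program of type 2 cells. ROR alpha acts in type 17 cells, BCL6 represses genes that block the follicular helper fate, and Blimp-1, the product of Prdm1, represses Bcl6. Regulatory T cells are known to borrow these factors, and GATA3, c-Maf and Blimp-1 have described roles in regulatory cells of the gut.

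Upstream sequences are shown for Bcl6 and Rora, which rose with stimulation, and for Gata3, which did not pass the test but had the widest range between genotypes, because they are the DNA that factors downstream of the T cell receptor could contact. They are the 250 bases before an annotated start of each gene, credited to RefSeq with build GRCm38.p6. The collection of start sequences used here covered 6 of the 9 genes. Capitals mark matches, on either strand, to the letters CACGTG (the E-box that BHLHE40 and its relatives bind), TGACG (the core of a cyclic AMP response element), TGANTCA (AP-1), GCGTGGGCG (EGR) and GGAAA (the core of an NFAT site), and to the NF-kappaB site. Bcl6 lies at chr16:23988853-23989102 (minus strand), Rora at chr9:68653536-68653785 (plus strand) and Gata3 at chr2:9878601-9878850 (minus strand). The Rora and Gata3 sequences lie inside the annotated spans of these genes, chr9:68653404-69388246 and chr2:9857078-9887953. Which start the sorted cells use was not measured.
Bcl6: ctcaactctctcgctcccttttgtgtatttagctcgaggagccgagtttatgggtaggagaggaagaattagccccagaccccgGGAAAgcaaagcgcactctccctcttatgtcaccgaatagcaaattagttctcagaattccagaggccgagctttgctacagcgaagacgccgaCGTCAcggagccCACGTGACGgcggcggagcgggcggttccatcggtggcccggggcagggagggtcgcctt
Rora: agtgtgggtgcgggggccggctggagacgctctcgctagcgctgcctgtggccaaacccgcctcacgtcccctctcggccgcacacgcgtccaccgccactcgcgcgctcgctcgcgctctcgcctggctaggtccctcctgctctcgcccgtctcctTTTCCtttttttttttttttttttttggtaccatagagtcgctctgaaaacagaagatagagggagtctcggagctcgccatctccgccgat
Gata3: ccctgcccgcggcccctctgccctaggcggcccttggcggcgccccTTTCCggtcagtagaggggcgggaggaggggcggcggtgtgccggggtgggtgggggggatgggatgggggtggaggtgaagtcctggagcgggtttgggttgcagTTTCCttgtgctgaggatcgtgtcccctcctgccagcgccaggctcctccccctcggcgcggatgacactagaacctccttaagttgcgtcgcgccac
The Bcl6 sequence held 1 E-box, which began 60 bases before the start, and 2 cyclic AMP response cores, which began 56 and 72 bases before it; the nearer core shares bases with the E-box. It also held 1 NFAT core. The Rora sequence held 1 NFAT core and the Gata3 sequence held 2, with no match to the other 5 motifs. Among 32851 such windows in the table, 6.02% held the E-box, 17.8% the cyclic AMP response core, 55.6% the NFAT core, 6.75% the AP-1 site, 1.41% the NF-kappaB site and 0.536% the EGR site. A second annotated start of Bcl6 had 3 NFAT cores and no match to the other 5 motifs. These matches describe letters only, and no binding was measured.

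The guide strand of the microRNA that the knockout mice lack is shown because its seed, bases 2 to 8 in capitals, is the stretch that pairs with target transcripts. It is annotated at chr11:86584120-86584141, minus strand, in build GRCm38.p6.
mmu-miR-21a-5p: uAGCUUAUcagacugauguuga

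The labelled populations and treatment were visible in genes outside the set. Foxp3, the defining factor of regulatory T cells, exceeded its CD45High level by 5.65 in CD25High cells (log2, SE 0.12, 4 pairs), Il2ra, which encodes CD25, was 3.78 higher (SE 0.17), and all 9 CD4 T cell markers with a probe were detected on every array. Crem, a transcription factor gene that responds to cyclic AMP, was 3.40 higher after stimulation (log2, SE 0.25), while Egr1, an early growth response factor, had means of 11.43 in stimulated and 11.48 in unstimulated cells. Between 9208 and 10477 probes were detected per array, and the knockout CD25High stimulated array stood apart with the fewest, 9208 against 9543 or more, and with a median correlation to the other arrays of 0.888 against 0.938 to 0.965, computed across probes. The knockout and wild type arrays of its pair differed with an SD of 0.815 across probes (log2), against 0.233 to 0.299 in the other 3 pairs.

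Bhlhe40 and Rora were the 2 factors of 5 tested that were higher in CD25High than in CD45High cells, 4.30-fold and 3.75-fold. Of all 11047 probes, 8.3% were called in this comparison, 5.41% as higher and 2.89% as lower. Both probes were detected but close to background in unstimulated CD45High cells. Bhlhe40 had 1.14 (knockout) and 1.34 (wild type) times the median of undetected probes there, and Rora 1.41 and 1.47. Alternatives that kept all pairs gave differences as low as 1.34 for Bhlhe40 and 1.21 for Rora (log2). Gata3 had larger values in CD25High cells in all 4 pairs without passing the test, and Bcl6 had smaller ones in all 4. Tbx21 was close to background. Without the pair that holds the array that stood apart, the differences were 2.21 for Bhlhe40 (log2, adjusted p = 0.000817), 1.63 for Rora (adjusted p = 0.0137) and 1.12 for Gata3. The median difference of the 5 tested factors was 1.05, beside -0.03 over all probes tested (log2). This median is the value of Gata3, which was not called. Tbx21 was detected on 3 CD25High and 0 CD45High arrays, so it could pass the filter through CD25High cells only. In such sorted bulk RNA, more cells of a type and more RNA per cell cannot be told apart.

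Bhlhe40 encodes a basic helix-loop-helix repressor that helps T cells make cytokines. In CD25High cells its log2 intensity was 10.09 in knockout stimulated, 10.07 in wild type stimulated, 7.47 in knockout unstimulated and 8.03 in wild type unstimulated cells, against 8.28, 8.40, 4.90 and 5.65 in the same order in CD45High cells. The CD25High value was the higher in each of the 4 pairs, although stimulated CD45High cells lay above unstimulated CD25High cells. The mean difference was 2.11 (log2, SE 0.18, adjusted p = 0.00227), with single pairs between 1.68 and 2.56. Over the alternatives that kept all pairs it was 1.34 to 2.32. In the order of levels only the knockout and wild type arrays of stimulated CD25High cells, and those of stimulated CD45High cells, were neighbours within the error between beads.

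Rora encodes ROR alpha, a nuclear receptor of type 17 cells and of group 2 innate lymphoid cells. Its bright probe, ILMN_1243741, had log2 intensities in CD25High cells of 9.23 in knockout stimulated, 9.24 in wild type stimulated, 7.19 in knockout unstimulated and 6.91 in wild type unstimulated cells, against 6.50, 6.67, 5.81 and 5.97, in that order, in CD45High cells. The lowest CD25High array, at 6.91, lay above the highest CD45High array, at 6.67. How many of all probes separate the populations in this way was not counted. The mean difference was 1.91 (log2, SE 0.32, adjusted p = 0.0195); it was 2.73 and 2.57 in the knockout and wild type stimulated pairs, and 1.38 and 0.94 in the unstimulated pairs. All 4 sets of neighbours within bead error in the order of levels were the knockout and wild type arrays of the same population and state. The call was lost without the knockout unstimulated pair (adjusted p = 0.0621), without the wild type stimulated pair (0.106) and with no filter on dim probes (0.0896), and without background correction the difference was 1.21 (adjusted p = 0.0712).

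Gata3 encodes the zinc finger factor of type 2 cells, which T cells also need to develop. Its log2 intensities in CD25High cells were 8.59 in knockout stimulated, 10.00 in wild type stimulated, 8.64 in knockout unstimulated and 8.89 in wild type unstimulated cells, against 7.75, 7.50, 8.29 and 8.39, in that order, in CD45High cells. Every CD25High array lay above every CD45High array, a separation that was not counted over all probes. The size of the gap differed between pairs, at 2.50 in the wild type stimulated pair and 0.35 to 0.85 in the other 3. The mean of 1.05 (log2, SE 0.36) did not pass the test (adjusted p = 0.138). Without the wild type stimulated pair it was 0.57. The nearest arrays of the populations, at 8.59 in knockout stimulated CD25High and 8.39 in wild type unstimulated CD45High cells, were neighbours within bead error, as were the knockout CD25High arrays with each other and the unstimulated CD45High arrays with each other.

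Bcl6 encodes the repressor that follicular helper cells depend on. Its log2 intensities in CD25High cells were 9.54 in knockout stimulated, 9.43 in wild type stimulated, 8.86 in knockout unstimulated and 8.93 in wild type unstimulated cells, against 9.80, 9.83, 9.31 and 9.25, in that order, in CD45High cells. Each CD25High array lay below its partner by 0.26 to 0.45, while the ranges of the populations overlapped. The mean of -0.36 (log2, SE 0.11) did not pass the test (adjusted p = 0.118), and it did without background correction (-0.31, adjusted p = 0.0313) and with array weights (-0.38, adjusted p = 0.0337).

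Tbx21 encodes T-bet. Its probe was detected on 3 arrays, with intensities of 117.8 in knockout stimulated, 110.6 in wild type stimulated and 117.1 in knockout unstimulated CD25High cells. The wild type unstimulated CD25High array gave 103.4, and the 4 CD45High arrays gave 92.4 to 102.7, all not above background. These signals are 0.977 to 1.16 times the median of undetected probes, so the difference of 0.42 (log2, SE 0.18, adjusted p = 0.208) is close to the floor of the array, and no fold is given.

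**Figure D1:**
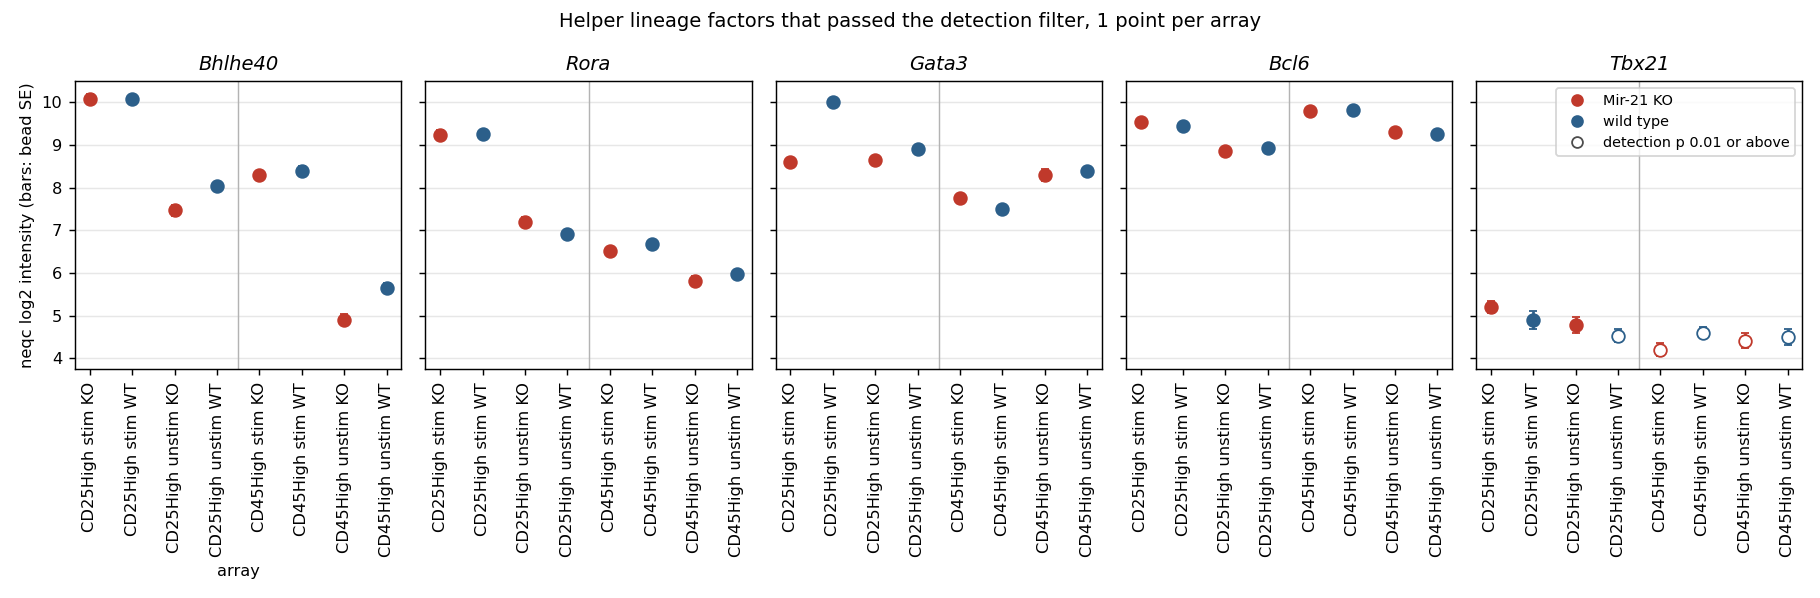
Quantile-normalized log2 intensity (vertical axis) of the 5 factors that passed the detection filter on each of the 8 arrays (horizontal axis), knockout in red and wild type in blue, with bars for the standard error between beads and open circles for arrays where the probe was not above background. Bhlhe40 spans 4.90 to 10.09 with steps for both population and stimulation, Rora reaches 9.23 and 9.24 in stimulated CD25High cells, and Gata3 reaches 10.00 in wild type stimulated CD25High cells against 8.59 in their knockout counterpart.

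Maf, Prdm1 and Ahr gave no signal that could be compared, since their probes and the second Rora probe were at background on nearly every array. Maf encodes c-Maf, an activator of the interleukin 4, 10 and 21 genes, and its probe was above background on 1 array, the knockout unstimulated CD25High array, at an intensity of 118.7 (from 30 beads). In the other CD25High arrays Maf had 103.6 in knockout stimulated, 104.7 in wild type stimulated and 105 in wild type unstimulated cells, against 94.8 to 98 on the 4 CD45High arrays. Set over the median of undetected probes on the same array, the 8 Maf values are ratios of 0.994 to 1.17, and the bead errors were 1.95 to 3.69% of the signal. Both Prdm1 probes, ILMN_2597923 and ILMN_2744650, read 92.7 to 100.6 on the 8 arrays. The Ahr probe read 89.1 to 97.1, below the median of undetected probes throughout; the aryl hydrocarbon receptor it reports on senses small molecules of diet and gut bacteria. The second Rora probe, ILMN_2742686, was detected on 0 of 8 arrays, with 93 to 106.5, so the probes of this gene disagree. A probe at background gives only a bound, and these values do not show that the transcripts were absent.

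**Figure D2:**
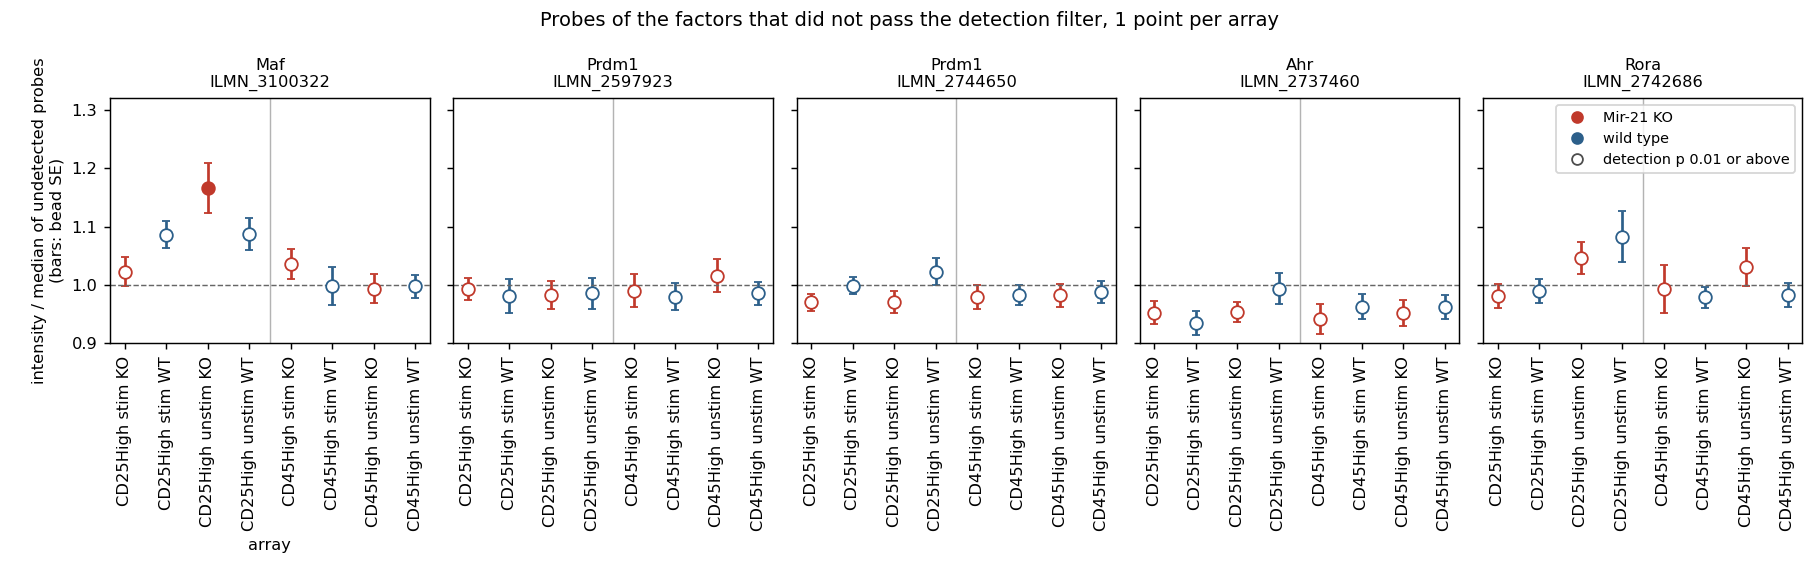
Intensity as a ratio to the median of undetected probes of the same array (vertical axis, linear) for the 5 member probes that did not pass the filter on each of the 8 arrays (horizontal axis), with bars for the standard error between beads, filled circles where detected and a dashed line at 1. The Maf point of the knockout unstimulated CD25High array at 1.17 is the single detection, and the Prdm1 and Ahr points lie between 0.936 and 1.02.

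The genes that these factors act on or with were read from lists chosen with earlier results of these data known. Their counts stand beside the 8.3% of all probes called between populations, 5.41% as higher and 2.89% as lower. Genes described as part of the effector regulatory program tied to Blimp-1 were higher in CD25High cells for 8 of 12 tested and lower for 0. Among them were Itgae, the integrin chain CD103 (4.47, log2, SE 0.35), Ctla4, an inhibitory receptor (2.84, SE 0.34), and Tnfrsf9, the receptor 4-1BB (2.47, SE 0.28). Il10, the gene of the suppressive cytokine interleukin 10, was detected on 4 CD25High and 0 CD45High arrays and was at least 11.9-fold higher. Prdm1 itself, as above, was at background on the same arrays. The median difference of this list was 1.96 (log2), beside -0.03 over all probes. Itgae and Ctla4 are also on the list of general Treg genes, which had a larger median of 3.10. All 11 genes tested on that list were higher, so the difference is not particular to the list tied to Blimp-1. Of its 14 genes with a probe, 4 were detected in CD25High but on no CD45High array, 3 of them on all 4 CD25High arrays. They could pass the filter through CD25High cells only, and the count and median include those tested. Such one-sided detection was not counted over all probes.

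In the type 1, 2 and 17 lists 11 of 12, 8 of 10 and 6 of 7 genes tested had values above 0, beside 45.8% of all probes. A minority of each list was called, beside 8.3% of all probes, 5.41% as higher and 2.89% as lower. Of genes with a probe, 1 of 18, 4 of 15 and 4 of 14 in these lists were detected in CD25High but on no CD45High array. They could pass the filter through CD25High cells only and could be counted only as higher. The share of all probes detected in this way was not counted. Of 12 type 1 genes tested, 4 were higher and 0 lower in CD25High cells, among them Lta, a cytokine of the tumour necrosis factor family (1.53, log2, SE 0.13), the chemokine Ccl4 (1.48, SE 0.27), and Havcr2, the receptor TIM-3 (at least 1.23-fold). Of 10 type 2 genes tested, 4 were higher and 0 lower: Ecm1, an extracellular matrix protein (1.79, SE 0.20), Ccr8, a chemokine receptor (1.75, SE 0.12), Areg, the growth factor amphiregulin (at least 3.73-fold), and Il1rl1, the receptor for interleukin 33 (at least 1.39-fold). The Areg call (adjusted p = 0.0496) was lost under 7 of 11 alternatives, and its fitted difference was 1.93 to 3.13 with a pair left out, against 2.45 with all 4 (log2). Of 7 type 17 genes tested, Ccr6, a chemokine receptor, was the 1 called higher (3.16, SE 0.13).

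Genes of the follicular program moved both ways, with 2 of 10 higher and 2 lower in CD25High cells. For this list and those below, 8.3% of all probes were called, 5.41% as higher and 2.89% as lower. Cxcr5, the receptor that leads T cells into follicles (1.45, log2, SE 0.24), and Cd200, a surface glycoprotein (1.22, SE 0.20), were higher, whereas Lef1 (-1.71, SE 0.35) and Tcf7 (-0.96, SE 0.12), factors shared with naive T cells, were lower. The calls of Lef1, Cd200, Cxcr5 and Tcf7 were lost under 6, 4, 3 and 3 of 12 alternatives. Naive T cell genes were lower for 5 of 12 and higher for 0, and all 11 Treg genes tested were higher. Of 4 targets of the aryl hydrocarbon receptor tested, Fas, a death receptor, was higher (0.94, SE 0.21), and the classical targets Cyp1a1, Cyp1b1 and Tiparp were detected on no array. Close relatives and partners of the factors were called for 0 of 16 in this comparison. Genes of the circadian clock, which Bhlhe40 and Nfil3 also regulate, were called for 0 of 9. For lists of this size, 0 calls lies near the share of all probes. Of 19 receptors and signal transducers of helper differentiation, 4 were higher, led by Il2rb, the beta chain of the interleukin 2 receptor (1.59, SE 0.16), and Tgfbr1, a receptor of transforming growth factor beta (1.26, SE 0.22), and 1 was lower.

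The ranges of summed B cell and group 2 innate lymphoid markers did not overlap between the populations. Nor did those of Treg, naive T cell, and stromal and endothelial sums. The ranges of myeloid, CD8 T and NK, CD4 T cell, and erythroid and platelet sums overlapped. The myeloid sum was still larger in CD25High cells in every matched pair. The summed signal of 10 B cell markers was 941 to 1686 in CD25High and 252 to 421 in CD45High arrays. Detected were 5 to 6 of these markers on CD25High arrays and 1 to 4 on CD45High arrays. Cd79b (2.06, log2, SE 0.20) was called higher, and Cr2, Jchain and Pax5 were detected on no array. The sum of 8 group 2 innate lymphoid markers other than Rora and Gata3 was 188 to 427 against 95.2 to 124. Detected were 3 to 7 of these 8 on CD25High arrays and 2 to 3 on CD45High arrays. Most of them were thus not above background on each CD45High array. Klrg1 in that list was at least 3.42-fold higher. The sum of 14 myeloid markers was 941 to 1538 against 186 to 1222, with Cd14, Flt3, Itgam, Itgax and Spi1 detected on no array, and the sum of 8 CD8 T and NK markers was 986 to 1429 against 926 to 1326. Within matched pairs the myeloid sum was 941 against 186 in knockout stimulated and 1096 against 403 in wild type stimulated cells. In unstimulated cells it was 1538 against 1222 in knockout and 1412 against 745 in wild type. Of 7 myeloid genes tested, 1 was called higher in CD25High cells and 0 lower. The part of B, innate lymphoid, myeloid, CD8 T and NK cells in the Bhlhe40, Rora, Gata3 and Bcl6 values was not tested. The sum of CD4 T cell markers was 22894 to 37934 in CD25High and 37747 to 39308 in CD45High arrays.

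**Figure D3:**
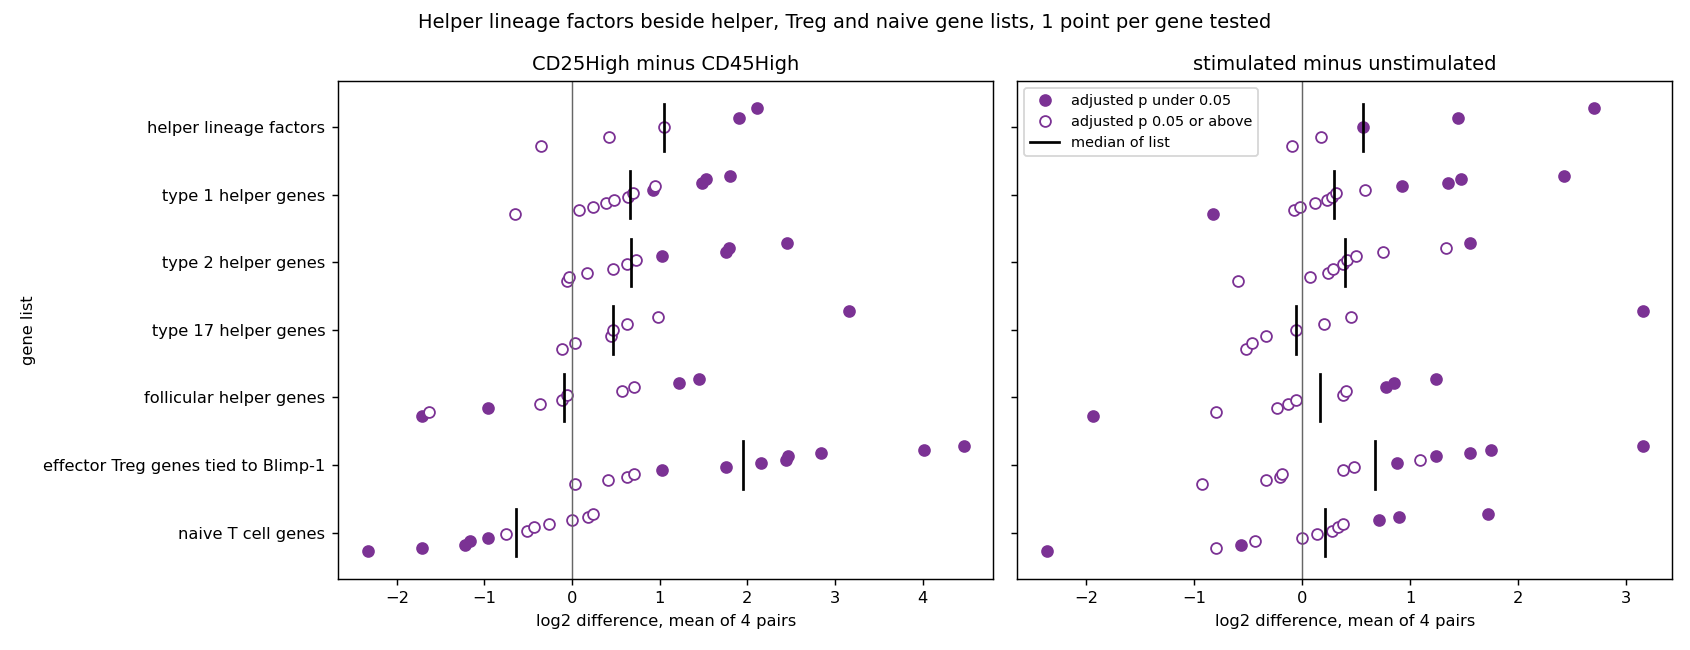
Mean log2 difference over 4 pairs (horizontal axis) for CD25High minus CD45High (left) and stimulated minus unstimulated (right), 1 point per gene tested, filled where the adjusted p is under 0.05, with the median of each list as a bar; for genes at background in a whole group the fitted value is plotted. The helper lineage factors have medians of 1.05 and 0.56, and the effector regulatory list tied to Blimp-1 has 1.96 and 0.67.

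Stimulation through CD3 and CD28 for 30 min raised Bhlhe40, Rora and Bcl6. Over the 4 pairs Bhlhe40 was 6.50-fold, Rora 2.72-fold and Bcl6 1.48-fold higher in stimulated cells, so 3 of 5 tested factors were called; 16% of all probes were called in this comparison, 7.93% as higher and 8.1% as lower. Gata3 and Tbx21 were not called. With the knockout CD25High pair left out, Bhlhe40 had 2.73 (log2, adjusted p = 0.00112), Rora 1.24 (adjusted p = 0.0260) and Bcl6 0.52 (adjusted p = 0.0247). The median difference of the 5 factors was 0.56, beside -0.0016 over all probes (log2).

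Bhlhe40 showed the largest response of the 5. In stimulated cells it was 10.09 (knockout CD25High), 10.07 (wild type CD25High), 8.28 (knockout CD45High) and 8.40 (wild type CD45High), against 7.47, 8.03, 4.90 and 5.65, in that order, in unstimulated cells (log2). All 4 stimulated arrays lay above all 4 unstimulated ones. Over all probes, such a separation by stimulation was not counted. The mean difference was 2.70 (log2, SE 0.22, adjusted p = 0.00566), and single pairs lay between 2.05 and 3.38. Over the alternatives that kept all pairs it was 1.77 to 2.78. Bcl6 gave the most even response, with differences of 0.68 and 0.51 in knockout and wild type CD25High cells and 0.49 and 0.57 in knockout and wild type CD45High cells. Its 4 stimulated arrays, at 9.43 to 9.83, lay above the unstimulated ones, at 8.86 to 9.31, and the mean was 0.56 (SE 0.12, adjusted p = 0.0260). Rora rose by 1.44 on average (SE 0.31, adjusted p = 0.0302), with 2.04 and 2.33 in knockout and wild type CD25High cells but 0.70 in both CD45High pairs.

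Gata3 went different ways in the pairs. Its differences were -0.05 and 1.11 in knockout and wild type CD25High cells, and -0.55 and -0.89 in knockout and wild type CD45High cells, with a mean of -0.10 (SE 0.32, adjusted p = 0.854). Tbx21 had 0.17 (SE 0.15, adjusted p = 0.445) near background. Without the wild type CD25High pair 0 of 11047 probes were called, and Bhlhe40 had an adjusted p of 0.0579, Rora 0.133 and Bcl6 0.119; without the knockout CD45High pair Rora had 0.0721 and Bcl6 0.0932, and without the wild type CD45High pair Bcl6 had 0.0902. Rora also lost its call with no filter on dim probes (adjusted p = 0.106) and without background correction (0.96, adjusted p = 0.0717).

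Within CD25High cells, Bhlhe40 and Rora rose with stimulation, 5.04-fold (2.33, log2, SE 0.24, adjusted p = 0.00865) and 4.55-fold (2.19, SE 0.17, adjusted p = 0.00603). These were 2 of 5 factors, where 14.3% of all probes were called, 7.45% as higher and 6.85% as lower. Bcl6 had 0.59 (SE 0.17, adjusted p = 0.0672), Gata3 0.53 (adjusted p = 0.262) and Tbx21 0.40 (adjusted p = 0.168). Gata3 had 1.11 (adjusted p = 0.0025) without the knockout CD25High pair, in a fit where the lone wild type pair is assumed to vary like the others, and Bcl6 had 0.68 (adjusted p = 0.0289) without the wild type CD25High pair; these fits called 22.9% and 36.2% of all probes. Bcl6 was called under 5 of 12 alternatives, with adjusted p-values over all 12 of 0.0207 to 0.195. Within CD45High cells Bhlhe40 rose 8.38-fold (3.07, SE 0.24, adjusted p = 0.0257), the 1 factor called where 0.987% of all probes were called, 0.724% as higher and 0.263% as lower. The unstimulated CD45High arrays of Bhlhe40 were close to background. Alternatives that kept all pairs gave it 1.62 to 3.07 (log2) in these cells. Rora had 0.70 in CD45High cells (SE 0.17, adjusted p = 0.118), Bcl6 0.53 (adjusted p = 0.172) and Gata3 -0.72 (adjusted p = 0.269). The Bhlhe40 call in CD45High cells was lost with cyclic loess normalization (adjusted p = 0.0507), with no filter (0.0837) and without the knockout or the wild type CD45High pair (0.627 and 0.325). Without either CD25High pair Gata3, Rora and Bcl6 were called in CD45High cells too (adjusted p = 0.00507, 0.00502 and 0.0251), in fits that called 22.3% of all probes.

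The difference between these responses was itself tested and called for none of the 5 factors, and for 0 of 11047 probes (0%), although 1048 had an unadjusted p under 0.05 in the limma fit. On simulated data this test recovered 0% of probes with a true log2 difference of 1, so 0 calls does not show equal responses. The response of Rora was 1.49 larger in CD25High cells (log2, SE 0.24, adjusted p = 0.309) and that of Gata3 1.25 larger (SE 0.42, adjusted p = 0.488). That of Bhlhe40 was smaller in CD25High cells by 0.73 (SE 0.34, adjusted p = 0.537), and larger by 0.29 without background correction. Its unstimulated CD45High arrays were close to background, at intensities of 112.3 in knockout and 130.4 in wild type cells, 1.14 and 1.34 times the median of undetected probes. Without the knockout CD25High pair the difference was called for Rora (1.63, adjusted p = 0.00414) and Gata3 (1.83, adjusted p = 0.00238), and without the wild type CD25High pair for Rora (1.34, adjusted p = 0.00252), in fits that called 1.88% and 18.4% of all probes.

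**Figure D4:**
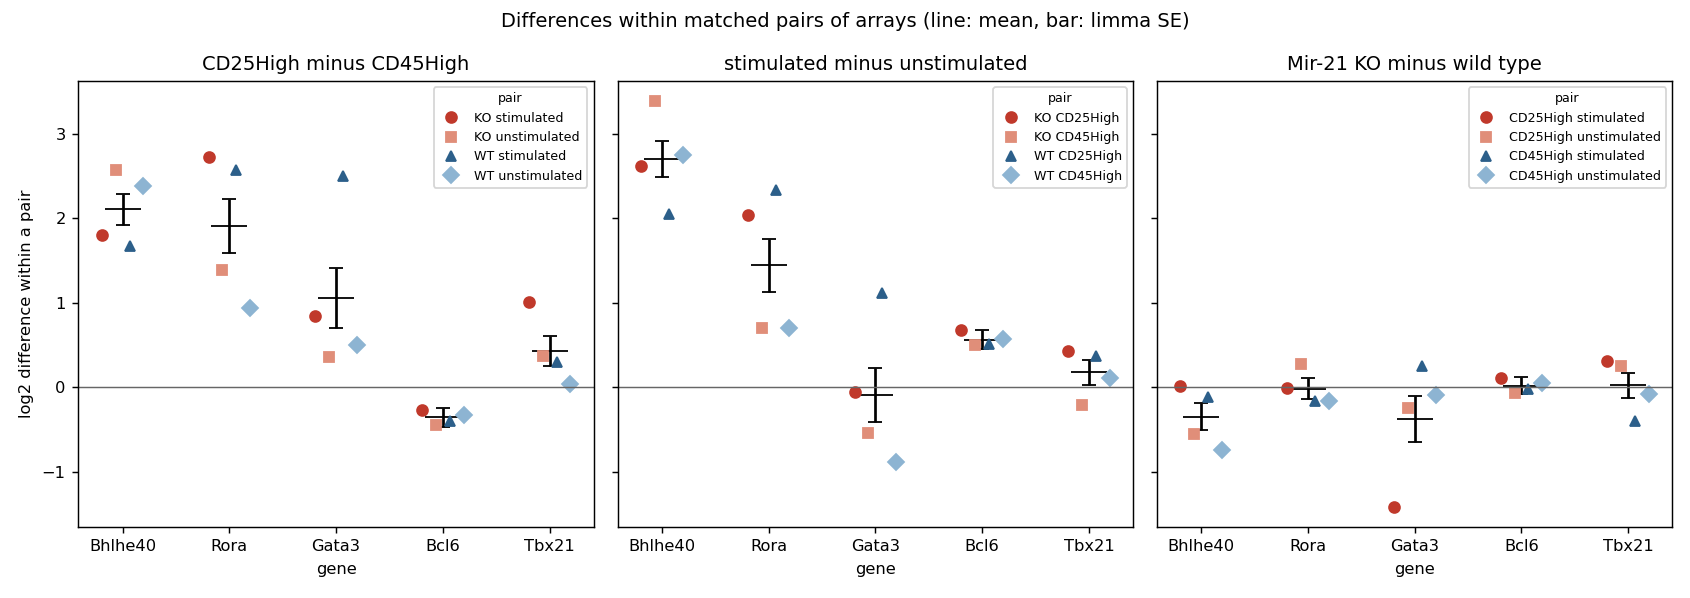
Log2 differences within matched pairs of arrays (vertical axis) for the 5 tested factors (horizontal axis), for CD25High minus CD45High (left), stimulated minus unstimulated (middle) and knockout minus wild type (right), with 1 symbol per pair, a line for the mean and a bar for its standard error from limma. Bhlhe40 and Rora lie above 0 in every pair of the left and middle panels, Bcl6 lies between 0.49 and 0.68 in the middle panel, and Gata3 has -1.41 in the stimulated CD25High pair of the right panel.

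The other lists are read here against the 16% of all probes called after stimulation, 7.93% as higher and 8.1% as lower. Of 16 close relatives and partners tested, 5 were higher and 3 lower, among them Mafg, a small MAF partner protein (1.47, log2, SE 0.16), Maff, another small MAF (at least 1.66-fold), Satb1, a chromatin organizer of T cells (0.89, SE 0.15), and Dbp, a clock output factor related to Nfil3 that was lower (-1.55, SE 0.20). Clock genes were called for 3 of 9, with Nr1d2, a nuclear receptor (0.90, SE 0.20), and Arntl, the core activator BMAL1 (0.67, SE 0.12), higher and Dbp lower. Irf4, a factor that works with BATF in most effector programs, was 8.88-fold higher (3.15, SE 0.40). It was the 1 of 7 type 17 genes called higher, while 3 had values above 0, beside 49.8% of all probes. A gene can stand on more than 1 list, so the counts are not separate results. Irf4 is also counted as higher in the signal transducer and effector regulatory lists below, and Ccr8 in the type 2 and effector regulatory lists.

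Receptors for helper cytokines changed in both directions after stimulation, with 4 of 19 signal transducers higher and 2 lower. Both chains of the interferon gamma receptor were higher, Ifngr1 (1.54, log2, SE 0.12) and Ifngr2 (1.01, SE 0.18), while Il6ra, a receptor chain for interleukin 6, was lower (-1.93, SE 0.37). Of 12 type 1 genes, 4 were higher, with Ccl4 (2.42, SE 0.27), Tnf, the gene of tumour necrosis factor (1.46, SE 0.16), Ccl3 (at least 1.95-fold) and Stat4, the transducer of interleukin 12 (0.92, SE 0.21), and 1 was lower. Of 10 type 2 genes, Ccr8 was higher (1.55, SE 0.14) and 0 were lower. Of 10 follicular genes, 3 were higher, namely Icos, a costimulatory receptor (1.24, SE 0.24), Cd200 (0.85, SE 0.19) and Btla, an inhibitory receptor (0.77, SE 0.11), and Il6ra was lower. The effector regulatory list tied to Blimp-1 had 5 of 12 higher, among them Tnfrsf9 (1.74, SE 0.32), and 0 lower. Targets of the aryl hydrocarbon receptor had 0 of 4 called.

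Marker sums also differed with stimulation. In CD25High cells the 8 group 2 innate lymphoid markers summed to 408 in knockout and 427 in wild type stimulated cells. In unstimulated CD25High cells they summed to 215 in knockout and 188 in wild type. Rora rose 4.55-fold between these states. The list went both ways there. Of its 10 genes tested, Rora and Gata3 included, 3 were called higher and 1 lower, where 14.3% of all probes were called. Il17rb was the lower one (at least 1.43-fold), and Il5 was among the higher ones (at least 2.01-fold). In CD45High cells the sums were 106 to 124 against 95.2 to 97.8. CD4 T cell markers summed to 29866 in knockout and 22894 in wild type stimulated CD25High cells, against 37934 and 36842 in the unstimulated ones, and Cd3e (-0.996, log2, SE 0.18), Cd4 (-0.94, SE 0.23) and Cd3g (-0.90, SE 0.21) were called lower there. Over all arrays, B cell markers summed to 346 to 1686 in stimulated and 252 to 981 in unstimulated cells. Myeloid markers summed to 186 to 1096 and 745 to 1538, with Lyz2 (-2.18, SE 0.56) and Lyz1 (-1.60, SE 0.42) called lower. These were 2 of 7 myeloid genes tested, where 16% of all probes were called. None of the 7 was called higher, but 4 had values above 0, so this list went both ways too. The Cd4 call was lost under 7 of 12 alternatives, that of Cd3g under 5 and that of Cd3e under 3. Lyz2 lost its call under 6 of 11 alternatives and Lyz1 under 6 of 12. The part of these marker shifts in the Rora, Bhlhe40 and Bcl6 values was not tested.

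None of the 5 factors was called between Mir-21_KO and wild type cells, over all 4 pairs or within a population. The limma fit over 4 pairs called 0 of 11047 probes (0%), and 1083 had an unadjusted p under 0.05. Gata3 had the widest range: in knockout against wild type cells it was 8.59 against 10.00 in stimulated CD25High, 8.64 against 8.89 in unstimulated CD25High, 7.75 against 7.50 in stimulated CD45High and 8.29 against 8.39 in unstimulated CD45High cells (log2). The mean of -0.38 (SE 0.27, adjusted p = 0.554) was -0.03 without the stimulated CD25High pair, which holds the array that stood apart. Bhlhe40 was lower in knockout than in wild type cells in 3 of 4 pairs, by 0.56 and 0.74 in unstimulated CD25High and CD45High cells and by 0.11 in stimulated CD45High cells, with 0.01 in stimulated CD25High cells; its mean was -0.35 (SE 0.16, adjusted p = 0.493). Rora had -0.02 (SE 0.12), Bcl6 0.02 (SE 0.10) and Tbx21 0.02 (SE 0.15), with adjusted p-values of 0.946 to 0.952.

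Within CD25High cells the knockout minus wild type differences were -0.83 for Gata3 (log2, SE 0.30, adjusted p = 0.295), -0.27 for Bhlhe40, 0.28 for Tbx21, 0.13 for Rora and 0.02 for Bcl6. Within CD45High cells they were 0.07 for Gata3, -0.43 for Bhlhe40, -0.17 for Rora and 0.01 for Bcl6, each with an adjusted p of 1. Neither population gave a call among 11047 probes (0%), with 1794 and 137 at an unadjusted p under 0.05 in CD25High and CD45High cells. The difference of the genotype effect between populations was -0.91 for Gata3 (SE 0.42, adjusted p = 0.825), and that between stimulated and unstimulated cells was 0.60 for Bhlhe40 (SE 0.22, adjusted p = 0.863). Neither was called, nor was any other probe (0% in both, with 397 and 403 at an unadjusted p under 0.05). On simulated data these tests recovered 0.5% and 0% of probes with a true log2 difference of 1. With 1 pair left out Gata3 was called in CD25High cells without the unstimulated pair (-1.41, adjusted p = 0.000205), in the difference between populations without that same pair (-1.49, adjusted p = 0.00138) and in the difference between states without the stimulated CD45High pair (-1.24, adjusted p = 0.00595). The first rests on the stimulated CD25High pair alone and each of the others has that pair alone on 1 side, and these fits called 28.1%, 16.1% and 19% of all probes. No gene of the other lists was called between genotypes over all pairs. With 1 array per combination, these p-values do not show that the factors were alike in knockout and wild type cells.

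The genes most like each factor across the 8 arrays were picked by the smallest root mean square distance between profiles centred on their own mean, for factors with an SD of at least 0.5. Nearest to Rora were Il1r2, a decoy receptor for interleukin 1 (0.18, log2), Plscr1, a phospholipid scramblase (0.21), and Slc2a6, a sugar transporter (0.23). Nearest to Gata3 were Top2a, a DNA topoisomerase of dividing cells (0.27), Pxdc1 (0.32) and Fas (0.34), and nearest to Bhlhe40 were LOC100047934 (0.38), Mfsd2a, a lipid transporter (0.52), and Swap70, a signalling protein (0.52). The profiles share the arrays and their normalization, and the distances describe likeness over 8 arrays only.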

How the data were processed

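Messenger RNA was measured on 8 single arrays, grouped from the labels by genotype, population and stimulation. Per the file headers, the deposited non-normalized table holds a linear bead intensity, its standard error, a count of beads and a detection p-value. The deposited value table is on a log2 scale and its 14533 probes differ from the values computed here by at most 0.0539. Limma is named in the submitters' processing notes, without a version. The number of arrays and the signal over background limit the precision; the median probe had 38 to 40 beads per array.

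Intensities were processed with neqc of limma 3.58.1 in R 4.3.3 (background estimated through detection p-values, offset 16, quantile normalization). The filter, detection below 0.01 on 2 arrays or more, kept 11047 probes of 8104 genes. They were fitted with lmFit and eBayes with matched combinations as blocks, and called at a two-sided Benjamini-Hochberg adjusted p under 0.05 over all of them. The fits left 3 residual degrees of freedom over all pairs, and 2 within a population or for a difference, where both populations share an error. Pairs follow the factorial labels and share no known animal. Between pairs, differences correlated over probes at 0.387 to 0.814 for population, 0.33 to 0.72 for stimulation and 0.0256 to 0.419 for genotype.

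The members and gene lists were chosen with earlier results of these data known. Per list and comparison, up to 4 genes with the largest called differences of 1 sign in every pair are named, by the brightest probe; genes named beyond this rule were chosen after their values were seen. If no array of the lower group detected a probe, its values there were raised to the lowest detected signal of each array, which makes the fold a lower bound, written with at least. Marker sums are of background-corrected linear signal. Symbols matched GRCm38.p6 for 20733 probes as current and 3872 as older names. Alternatives were cyclic loess, no background correction, the deposited values, no filter, a filter on all 8 arrays, no block, array weights, another variance prior and leaving out each pair. The fits were tested on simulated data with 200 changed probes of 11047. At a true log2 difference of 1, fits over 4 pairs recovered 85 to 86% of them. Fits within a population recovered 32.5 to 54.5%, and tests of a difference between responses or genotype effects recovered 0 to 0.5%. At a true difference of 2 the share was 92.5 to 100%. Some genes of the lists are counted but not reported here by name.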

Additional observations from a re-analysis of the deposited data

Results flagged for a closer look

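Tbx21 was picked out because its knockout minus wild type difference was above 0 in both CD25High pairs (0.31 stimulated and 0.25 unstimulated, log2) and below 0 in both CD45High pairs (-0.40 stimulated and -0.08 unstimulated). The difference between the populations was 0.52 (log2, SE 0.25, adjusted p = 0.825 in limma), and it did not pass the test. The probe was above background on 2 knockout and 1 wild type CD25High arrays and on 0 CD45High arrays.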

How the results depend on the processing

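Alternatives gave 590 values for member probes, of which 518 kept the direction and the side of the threshold, 16 lost a call, 22 gained one and 34 changed sign, all of these in differences that were not called. Bhlhe40 between populations, and Bhlhe40 and Rora on stimulation in CD25High cells, were called under all 12 alternatives each. For genes of the lists, 349 of 1524 values lost the call. Between populations, 1 factor was called with no filter on dim probes, and 1 to 2 with a pair left out. For stimulation over all pairs, 0 to 3 were called with a pair left out, and 0 to 2564 of all probes over the alternatives. Within CD45High cells 0 factors were called with cyclic loess and with no filter, 3 with array weights and 0 to 4 with a pair left out. With a pair left out, 0 to 2 factors were called for the difference of responses, and 0 to 1 for genotype in CD25High cells, for its difference between populations and for its difference between stimulation states. Probes called in those fits for genotype reached 3099, 1783 and 2098; a fit left with 1 pair assumes that it varies like the rest. The fit without the replicate block called 2, 3, 3 and 1 factors for population, stimulation, stimulation in CD25High and in CD45High cells, and 0 in the other comparisons; the third in CD25High cells was Bcl6 (adjusted p = 0.0428). Signs that turned with the processing were 0.29 for the Bhlhe40 difference of responses without background correction, and for genotype over all pairs 0.013 (cyclic loess), 0.000547 (no background correction) and 0.034 (array weights) for Rora, -0.0021 for Tbx21 without background correction and -0.012 for Bcl6 with array weights. Cyclic loess gave -0.0076 for Bcl6 in CD25High cells and -0.032 for its difference between populations, and no background correction gave -0.036 for that of Bhlhe40. With a pair left out, signs also turned within these ranges. For stimulation, Gata3 had -0.50 to 0.17 over all pairs and -0.053 to 1.11 in CD25High cells, Tbx21 -0.21 to 0.11 in CD45High cells and Bcl6 -0.028 to 0.14 for the difference. For genotype over all pairs, Tbx21 had -0.073 to 0.16, Rora -0.12 to 0.032 and Bcl6 -0.013 to 0.044. In CD25High cells, Rora had -0.014 to 0.28, Bcl6 -0.066 to 0.10 and Bhlhe40 -0.56 to 0.012; in CD45High cells, Gata3 had -0.097 to 0.25 and Bcl6 -0.027 to 0.055. Between populations, the genotype effect of Bcl6 differed by -0.080 to 0.090 and that of Bhlhe40 by -0.16 to 0.47; between states, Gata3 had -1.24 to 0.42, Tbx21 -0.48 to 0.22, Rora -0.37 to 0.075 and Bcl6 -0.021 to 0.11. The cause of these changes was not tested.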
